A study of Homo sapiens with 8 samples.

Results

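The endothelin system comprises the secreted peptides endothelin-1, endothelin-2 and endothelin-3 (genes EDN1, EDN2 and EDN3), their receptors (EDNRA and EDNRB) and the endothelin-converting enzymes (ECE1 and ECE2). Its 7 genes were looked up by symbol in a count table of 30434 genes from SKBR3 cells, and 5 were found. EDNRA and ECE2 were not analysed here. The genes were chosen by symbol with the control and knockdown counts already in view, among them the near absence of EDNRB in control cells. Their own changes are therefore given as a description, with no test. 4 of the 5 (EDN1, EDN2, EDNRB and ECE1) passed the filter on low counts, and EDN3 did not.

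SKBR3 cells derive from a human breast carcinoma and carry an amplified ERBB2 (HER2) receptor gene. The 4 control samples were SKBR3 cells whose genotype is labelled wild type. The 4 knockdown samples came from a stable SKBR3 derivative transduced with lentiviruses carrying 3 individual short hairpin RNAs against FOXA1, a forkhead transcription factor of luminal breast cells. Both kinds of cell were grown in the same serum-containing medium, and no further treatment is given. The sources used here do not say whether the control cells carried a control vector, whether the knockdown line was 1 clone, or whether the replicates were separate cultures. The p-values below thus measure the spread between these samples, which may be technical, and effects of the line and of the knockdown cannot be told apart.

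Endothelins are made as long precursors. Furin-type proteases cut these to big endothelins, and the converting enzymes, which are membrane metalloproteases, release the short active peptides. The peptides are best known as vasoconstrictors released by endothelium, and epithelial cells make them as well. Both receptors couple to G proteins. EDNRB binds all 3 peptides and is needed for the development of melanocytes and enteric neurons from the neural crest, whereas EDNRA prefers endothelin-1 and endothelin-2.

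The mature peptides have 21 residues each, so a stretch of 63 coding bases identifies which ligand a transcript encodes. These stretches were read from the GENCODE 29 transcripts (GRCh38) and all lie in coding exons. The stretch lies at chr6:12292433-12292495 on the plus strand for EDN1, at chr1:41484061-41484123 on the minus strand for EDN2 and at chr20:59301646-59301708 on the plus strand for EDN3. They are shown because the ligands differed in their response and because reads would need to tell such close relatives apart. Capitals mark the bases unlike EDN1.
EDN1: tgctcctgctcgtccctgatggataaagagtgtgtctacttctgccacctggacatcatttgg
EDN2: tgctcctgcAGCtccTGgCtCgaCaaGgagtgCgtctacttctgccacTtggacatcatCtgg
EDN3: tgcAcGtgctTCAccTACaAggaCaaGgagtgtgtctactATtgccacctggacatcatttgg
EDN2 differed from EDN1 at 12 of these 63 bases and in 2 of 21 residues. EDN3 differed from EDN1 at 13 bases and in 6 residues.

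The bases before the start sites were read from RefSeq (GRCh38.p14), since the depleted protein is a DNA-binding forkhead factor. The table held start sites for EDN1, EDN2, EDNRB and ECE1 among the 5 genes found, with 3, 1, 2 and 4 windows respectively. The windows shown are chr6:12290111-12290360 on the plus strand for EDN1, chr1:41484684-41484933 on the minus strand for EDN2 and chr13:77918832-77919006 on the minus strand for EDNRB. The last one lies within the longer annotated EDNRB gene and was shortened to 175 bases to leave out annotated EDNRB exons. Capitals mark the letters TGTTTAC or TATTTAC, which resemble the forkhead recognition sequence.
EDN1: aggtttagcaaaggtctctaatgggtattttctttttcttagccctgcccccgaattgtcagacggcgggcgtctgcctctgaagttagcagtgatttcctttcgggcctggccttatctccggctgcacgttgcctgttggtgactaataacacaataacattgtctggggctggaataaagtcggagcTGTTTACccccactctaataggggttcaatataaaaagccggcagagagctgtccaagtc
EDN2: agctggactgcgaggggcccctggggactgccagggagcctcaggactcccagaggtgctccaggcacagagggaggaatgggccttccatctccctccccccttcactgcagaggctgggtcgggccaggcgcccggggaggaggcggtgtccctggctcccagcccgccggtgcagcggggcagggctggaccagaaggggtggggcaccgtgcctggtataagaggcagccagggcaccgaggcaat
EDNRB: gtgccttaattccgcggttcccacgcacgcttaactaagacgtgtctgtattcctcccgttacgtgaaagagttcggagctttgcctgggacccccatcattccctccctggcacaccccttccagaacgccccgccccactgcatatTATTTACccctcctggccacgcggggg
The EDN1 window held TGTTTAC 54 to 60 bases before the start, and the EDNRB window held TATTTAC 21 to 27 bases before it. A further EDN1 window, from position 12287769, held TATTTAC 138 to 144 bases before its start. The remaining EDN1 window, the second EDNRB window and all 4 ECE1 windows held no forkhead letters. Forkhead letters (TGTTTAC, its variant TATTTAC or the further variant TGTTTGC, either strand) occurred in 8.27% of all 35116 windows of 250 bases. The EDN1 window also held letters of 3 other kinds. AP-1 letters (TGACTAA, searched together with TGACTCA, also with TGAGTCA and likewise with TGAGTAA) stood 102 to 108 bases before the start, and 7.67% of all windows held such letters. GATA letters (AGATAA on the minus strand, searched together with TGATAA, also with AGATAG and likewise with TGATAG) stood 131 to 136 bases before it, against 22.3% of windows. A TATAAA element stood 26 to 31 bases before it, against 10.7% of windows. The EDN2 window held none of these letters, nor the GC box CCGCCC, nor the E-box letters CACGTG or their variant CATGTG. E-box letters were found in 15.2% of all windows. The EDNRB window held CCGCCC 38 to 43 bases before its start, and 42.6% of all windows held these letters. Windows not shown held such letters too. The second EDNRB window held TGATAA 135 to 140 and 195 to 200 bases before its start, and CATGTG 146 to 151 bases before it. The EDN1 window from position 12287769 held CCGCCC 103 to 108 bases before its start, and ECE1 windows held CCGCCC as well. All letters were searched on both strands. Matches of different kinds did not overlap in the windows shown. The letters were picked after the windows of these genes had been looked at, so the shares of all windows are no test of the matches. A match is not a bound site, and which start site these cells used was not measured.

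The 8 libraries held between 19087878 and 23786684 counts. Levels are given as CPM, counts per 1000000 counts of the library, with each library total first multiplied by its TMM scaling factor. FOXA1 was at 191.4 ± 1.65 CPM (SD, n = 4) in control libraries and at 3.95 ± 0.340 CPM (SD, n = 4) in knockdown libraries. Of its control level 2.06% was left (log2 fold change -5.60, SE 0.06, adjusted p = 3.19e-30, edgeR's quasi-likelihood test). Here and below, the SE is taken from the replicate log2 CPM and not from the edgeR fit. The contrast was broad. Of 16430 genes tested, 77.1% were called at an adjusted p under 0.05, 39.4% as higher and 37.7% as lower in knockdown, and 28.3% were called with at least a 2-fold change. The groups did not overlap in CPM for 71.9% of tested genes. All 4 endothelin genes that passed the filter were called, 3 lower and 1 higher, and none overlapped between groups. These counts stand on the contrast that chose the genes, so nothing is read from them.

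EDN1 and EDN2 transcripts were both lower in knockdown cells, EDN2 by far the more. EDN1 (ENSG00000078401.7, hg38 chromosome 6, 12290363 to 12297194, plus strand) encodes endothelin-1. Control replicates 1 to 4 held 666, 674, 624 and 735 EDN1 counts, and knockdown replicates 1 to 4 held 173, 156, 131 and 142. All control libraries stood above all knockdown libraries. Scaled to depth, the control mean was 30.6 ± 0.835 CPM and the knockdown mean 6.74 ± 0.420 CPM (SD, n = 4 each). This left 22.0% of the control level, a log2 ratio of -2.18 (SE 0.05). In bulk RNA, fewer cells making a transcript and less of it per cell cannot be told apart.

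EDN2 encodes endothelin-2 (ENSG00000127129.10, chromosome 1, 41478775 to 41484673, minus strand). Control libraries held 549, 541, 632 and 585 EDN2 counts, and knockdown libraries held 4, 5, 3 and 2. EDN2 was thus present in every control library and close to the floor in every knockdown library, where 3 counts is taken as the floor. The control mean was 26.2 ± 2.53 CPM and the knockdown mean 0.155 ± 0.0469 CPM (SD, n = 4 each), with a log2 ratio of -7.40 (SE 0.22). Control replicate 3 stood apart at 30.0 CPM, against 24.5 to 25.2 CPM in the other control libraries. From the summed counts, 2307 against 14, EDN2 in knockdown was at 0.600% of its control level, with an exact 95% interval of 0.327 to 1.01% that covers counting error only. Of the tested genes, 301 had at most 5 counts in every knockdown library. Of these, 6 including EDN2 had a control level per kilobase of exon at or above that of EDN2. Both cut-offs are EDN2's own values, so these counts describe its place and are not evidence of rarity.

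EDN3 encodes endothelin-3 (ENSG00000124205.18, chromosome 20, 59300427 to 59325992, plus strand), the ligand that works with EDNRB in neural crest development. It had 0 counts in all 4 control libraries, where the floor of 3 counts allows up to 0.129 to 0.142 CPM. Knockdown libraries held 2, 5, 3 and 4 counts, a mean of 0.157 ± 0.0524 CPM (SD, n = 4). These values are at or near the floor, so no fold is given.

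EDNRB, the receptor, went the other way from EDN1 and EDN2. The gene (ENSG00000136160.17, chromosome 13, 77895481 to 77975529, minus strand) gave 0, 0, 0 and 1 counts over the control replicates in order. The knockdown replicates gave 1625, 1717, 1316 and 1405. Receptor transcript was thus at the floor in every control library and plainly present in every knockdown library. The knockdown values were 69.0, 70.2, 66.9 and 64.9 CPM, a mean of 67.8 ± 2.34 CPM (SD, n = 4). Against the highest control floor of 0.142 CPM this is at least 476-fold higher, a log2 bound of 8.90. Of the tested genes, 431 had at most 3 counts in every control library and so passed the filter through the knockdown libraries alone. Of these, 12 including EDNRB reached its knockdown level per kilobase of exon. That cut-off is EDNRB's own value, so the count describes its place and nothing more is read from it.

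**Figure D1:**
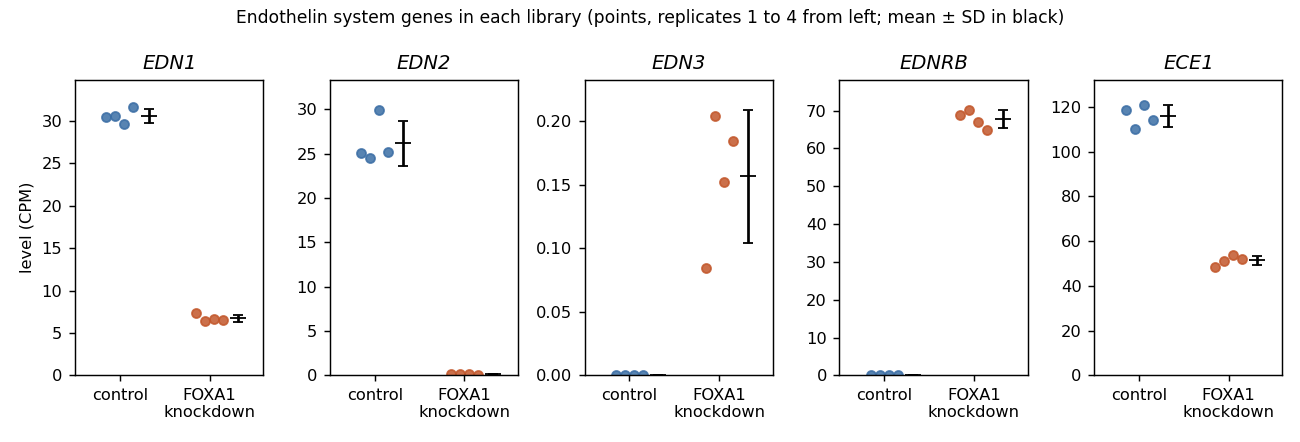
CPM of the endothelin genes in the 4 control and 4 knockdown libraries (points, 1 per library, replicates in order from the left; black marks are mean ± SD; the vertical axis of each panel is CPM on a linear scale starting at 0). EDN1, EDN2 and ECE1 are lower in knockdown, EDNRB is at the floor in control and at 64.9 to 70.2 CPM in knockdown, and EDN3 stays below 0.205 CPM throughout.

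ECE1, which encodes endothelin-converting enzyme 1, was lower in knockdown cells but remained well expressed. The gene lies on chromosome 1 from 21217247 to 21345572 on the minus strand (ENSG00000117298.16). Its counts were 2594, 2425, 2551 and 2647 in control and 1143, 1248, 1056 and 1128 in knockdown. The groups did not overlap. The control mean was 115.9 ± 4.92 CPM and the knockdown mean 51.3 ± 2.18 CPM (SD, n = 4 each), so knockdown cells had 44.3% of the control level, a log2 ratio of -1.17 (SE 0.04).

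To compare levels between genes, CPM was divided by the length of each gene's merged exons. In control cells EDN2 was at 16.0 ± 1.55, ECE1 at 15.8 ± 0.671 and EDN1 at 15.03 ± 0.411 CPM per kilobase (SD, n = 4 each). The 3 ranges overlapped, so no order among these genes was distinguishable on this scale. With the length of the longest annotated transcript in place of merged exons, ECE1 was at 22.7 and EDN2 at 21.1 CPM per kilobase, and EDN1 stayed at 15.03. On that scale EDN1, at 14.6 to 15.6, lay below EDN2, at 19.8 to 24.2, without overlap in control. EDNRB and EDN3 were at or near 0 on either scale. In knockdown cells EDNRB led with 12.1 ± 0.417 CPM per kilobase, followed by ECE1 at 7.002 ± 0.297 and EDN1 at 3.31 ± 0.207 (SD, n = 4 each), with no overlap between neighbours. EDN2 at 0.0945 ± 0.0286 and EDN3 at 0.0573 ± 0.0192 CPM per kilobase followed, and their ranges overlapped. The order in knockdown was the same with the longest transcript.

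On the same merged-exon scale, EDN1 and EDN2 together amounted to 31.0 ± 1.28 CPM per kilobase in control and 3.41 ± 0.210 in knockdown (SD, n = 4 each). EDN1 made up 48.5% ± 2.84 of this ligand sum in control libraries (range 44.3 to 50.3%) and 97.2% ± 0.860 in knockdown libraries (SD, n = 4 each). The near-equal control share holds for merged exons only, since EDN2 stood above EDN1 with the longest transcript as length. What ligand transcript was left in knockdown cells was thus almost wholly EDN1. The control cells had ligand and converting enzyme transcripts with EDNRB at the floor, and the knockdown cells had EDNRB with a lower ligand sum.

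**Figure D2:**
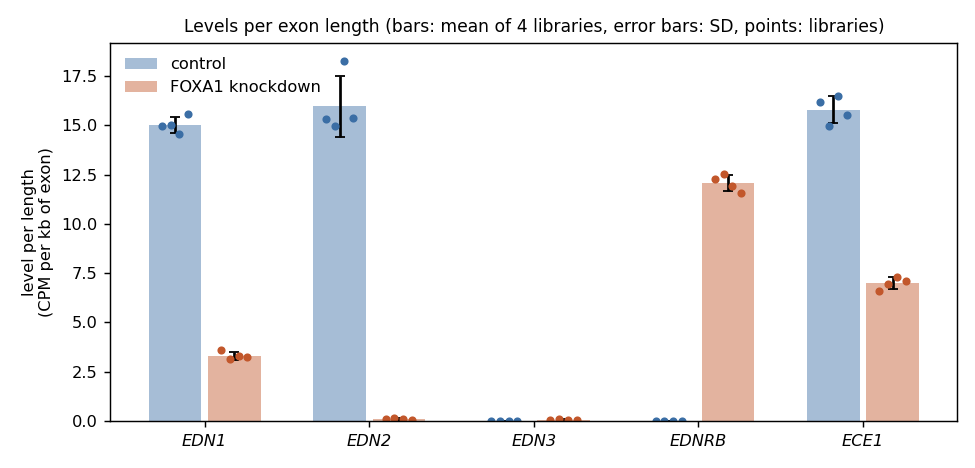
Level of each endothelin gene per kilobase of merged exons (vertical axis, CPM per kilobase) in control and knockdown libraries (points, 1 per library; bars are means of 4 libraries with SD). EDN2, ECE1 and EDN1 overlap in control at 14.6 to 18.3, and in knockdown the order is EDNRB, ECE1, EDN1, then EDN2 and EDN3 near 0.

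Genes annotated over the same positions were checked, because the sources used here do not say whether counting used the strand. EDN1, EDN2 and EDN3 had no overlapping gene in GENCODE 29. The long noncoding RNA AL139002.1 lies within EDNRB on the same strand with 0 shared exon bases, and it had 0 counts in control and 44 to 68 in knockdown (2.33 CPM). RNF219-AS1, antisense to EDNRB with 80 shared exon bases, had 0 to 13 counts in control libraries, where EDNRB had at most 1, and 0 to 6 in knockdown libraries, where EDNRB had at least 1316. ECE1 overlaps the antisense genes AL031728.1, with 240 shared exon bases, and AL031005.1, with 0, neither of which was analysed here. If counting ignored the strand, reads of the shared bases could not be told apart from those of ECE1.

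The 3 protein-coding genes whose CPM followed EDNRB most closely over the 8 libraries were SOHLH2, MGARP and SLC7A4. Their Euclidean distances to EDNRB in log2(CPM + 0.5) were 0.573, 0.616 and 0.773. SOHLH2, a germ cell transcription factor, had at most 1 count in any control library and 56.2 ± 2.26 CPM in knockdown (SD, n = 4). MGARP, a mitochondrial protein gene, had at most 2 control counts and 81.4 ± 2.95 CPM in knockdown (SD, n = 4). SLC7A4, of the cationic amino acid transporter family, had at most 1 control count and 52.6 ± 2.65 CPM (SD, n = 4). For ECE1, the endothelin gene with the highest mean CPM, the closest genes were GUCD1, CDC42EP1 and ARL6IP5, at distances of 0.157, 0.277 and 0.290. GUCD1 stood at 119.4 CPM in control and 51.8 in knockdown, CDC42EP1 at 106.9 and 50.6, and ARL6IP5 at 109.5 and 48.1. Such closeness on 8 libraries in 2 groups describes level and contrast and nothing more.

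The nearest tested protein-coding genes on either side had smaller absolute log2 changes than EDN1, EDN2, EDNRB and, by little, ECE1. The endothelin genes were chosen with this contrast in view and their neighbours were not. Nothing is therefore read from that difference, which was not tested. HIVEP1 upstream of EDN1 rose by a log2 fold change of 0.20 (SE 0.05, adjusted p = 0.000547, edgeR's quasi-likelihood test), and PHACTR1 downstream fell by 0.75 (SE 0.06, adjusted p = 5.64e-08). EDN2 lies between HIVEP3 (log2 fold change 0.03, SE 0.12, adjusted p = 0.811 by edgeR) and FOXO6 (-0.07, SE 0.05, adjusted p = 0.256). EDN2 was thus near the floor in knockdown between neighbours that did not pass the test. OBI1, a ubiquitin ligase gene upstream of EDNRB, fell by 0.63 (SE 0.05, adjusted p = 7.63e-10 by edgeR). SLAIN1, a microtubule regulator gene downstream of EDNRB, rose from 3.55 to 7.24 CPM (log2 fold change 1.02, SE 0.12, adjusted p = 1.10e-08 by edgeR). ECE1, with a log2 ratio of -1.17, lies between NBPF3 at 1.04 (SE 0.04, adjusted p = 2.73e-15 by edgeR) and EIF4G3 at -0.82 (SE 0.03, adjusted p = 1.64e-15). NBPF3 belongs to a family of near-identical copies, so its counts are uncertain. Next to EDN3, ZNF831 had 0 counts in every control library and a knockdown mean of 0.661 ± 0.0835 CPM (SD, n = 4), and SYCP2 fell by 1.23 (SE 0.16, adjusted p = 2.40e-05 by edgeR).

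Within 2 Mb of the start sites, called neighbours moved both ways around each gene, mostly up around EDN1 and mostly down around EDN3 and EDNRB. Around EDN1, 15 of 21 tested protein-coding genes rose and 3 fell, with a median log2 fold change of 0.21. Around EDN2, 19 of 49 rose and 22 fell, and the median was -0.07. Around EDN3, 5 of 19 rose and 10 fell, and the median was -0.23. Around EDNRB, 2 of 9 rose and 6 fell, with a median of -0.61. Around ECE1, 12 of 28 rose and 11 fell, and the median was 0.04. Beside these counts, 39.4% of all tested genes were called higher and 37.7% lower, with a median of 0.02. The 2 Mb width was chosen after the data were seen.

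**Figure D3:**
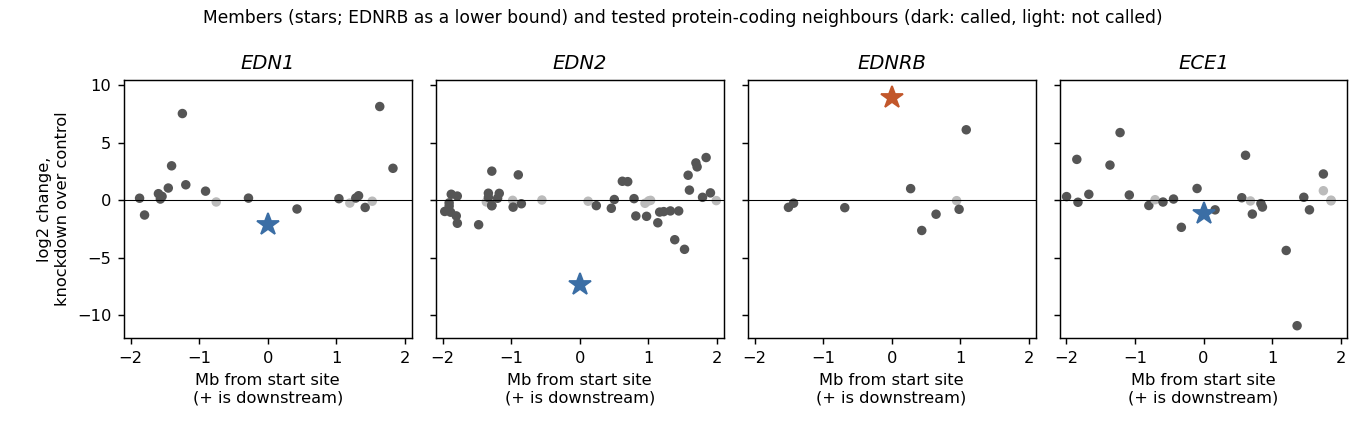
Log2 change of EDN1, EDN2, EDNRB and ECE1 (stars; EDNRB as its lower bound) and of the tested protein-coding genes within 2 Mb (points, dark where called and light where not), against distance in Mb from the start site, with downstream to the right. EDN2 at -7.40 and EDNRB at 8.90 lie beyond all of their neighbours, and neighbours of EDN1 and of ECE1 reach further from 0 than those genes do. The starred genes were chosen with this contrast in view, and their neighbours were not.

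The genes around the endothelin system were described by 6 lists of 82 symbols, of which 58 entries were tested. Of these, 21 rose, 30 fell and 7 were not called, so 87.9% were called beside 77.1% of all tested genes. Their median log2 fold change was -0.17, against 0.02 over all tested genes. Of all tested genes, 39.4% were called higher and 37.7% lower, and these shares stand beside the counts of each list below. Nothing particular to the lists is claimed from these counts. Fold changes and adjusted p-values below are from edgeR's quasi-likelihood test over all genes.

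Among the genes that process or clear the peptides, 4 of 8 tested rose and 4 fell. PCSK6, a proprotein convertase, rose from 0.489 to 17.9 CPM (log2 fold change 5.18, SE 0.13, adjusted p = 5.53e-22). The convertase FURIN, which acts on the endothelin precursors, rose from 52.7 to 140.4 CPM (1.42, SE 0.05, adjusted p = 7.96e-20), and was named outside the fixed rule for its role. PCSK6 and FURIN rose while the convertase PCSK7 fell by 0.73 on the log2 scale (SE 0.05, adjusted p = 4.40e-14). The endothelin-degrading neutral endopeptidase gene MME had at most 4 counts in any control library and stood at 15.5 ± 0.544 CPM in knockdown (SD, n = 4). Its relative MMEL1 fell from 13.9 to 0.124 CPM (log2 fold change -6.76, SE 0.21, adjusted p = 2.04e-21).

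All 21 tested genes of G protein and phospholipase C signalling were called, 7 higher and 14 lower, beside 77.1% of all tested genes called. PLCB4, a phospholipase C beta that Gq-coupled receptors activate, went from 55.5 ± 5.42 CPM in control (SD, n = 4) to at most 1 count in any knockdown library. That is at least 364-fold lower against the floor. Its relative PLCB1 went from 5.69 CPM to at most 1 count, at least 37.3-fold lower. Another isoform, PLCB3, fell only from 133.2 to 97.6 CPM (log2 fold change -0.45, SE 0.04, adjusted p = 1.34e-10). The isoform PLCB2 went the other way, from 1.48 to 4.63 CPM (log2 fold change 1.64, SE 0.17, adjusted p = 4.04e-10). Of the alpha subunits, GNAI1, an inhibitory one, rose from 1.36 to 58.7 CPM (log2 fold change 5.43, SE 0.22, adjusted p = 2.91e-25). The Gq subunit gene GNAQ rose from 57.2 to 84.0 CPM (0.56, SE 0.05, adjusted p = 2.11e-11) and its relative GNA11 fell from 133.7 to 76.1 CPM (-0.81, SE 0.05, adjusted p = 4.75e-15). PLCB2, PLCB3, GNAQ and GNA11 were named outside the fixed rule.

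Of 11 tested entries for receptor desensitisation, 4 rose, 3 fell and 4 were not called. The receptor kinase gene GRK3 rose from 0.398 to 20.1 CPM (log2 fold change 5.64, SE 0.33, adjusted p = 4.11e-22). Another receptor kinase, GRK5, fell from 4.72 to 1.05 CPM (-2.16, SE 0.17, adjusted p = 7.35e-12). RGS3, which speeds the shut-off of G proteins, fell from 83.4 to 28.8 CPM (-1.53, SE 0.03, adjusted p = 2.21e-20). The arrestin genes ARRB1 (log2 fold change -0.08, adjusted p = 0.0984) and ARRB2 (0.10, adjusted p = 0.134) did not pass, nor did RGS19 and 1 of 2 entries for RGS5.

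Of the 2 tested receptor relatives, GPR37, an orphan receptor related to the endothelin receptors, rose from 20.6 to 61.6 CPM (log2 fold change 1.58, SE 0.05, adjusted p = 2.12e-19). GPR37L1 did not pass (-0.38, SE 0.17, adjusted p = 0.119). Among other vasoactive peptides and receptors, 1 of 6 tested rose, 4 fell and 1 was not called. The natriuretic peptide clearance receptor NPR3 fell from 78.0 to 4.92 CPM (log2 fold change -3.98, SE 0.07, adjusted p = 9.19e-26). The bradykinin receptor BDKRB2 fell from 12.3 to 0.848 CPM (-3.86, SE 0.13, adjusted p = 1.72e-19). The vasodilator peptide gene ADM rose from 6.06 to 16.1 CPM (1.41, SE 0.05, adjusted p = 6.90e-15).

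Of 10 factors known to act on EDN1 transcription, 4 rose, 5 fell and 1 was not called. KLF2, an endothelial factor that lowers EDN1, fell from 8.01 to 0.517 CPM (log2 fold change -3.92, SE 0.24, adjusted p = 6.98e-17). The AP-1 subunit gene FOS rose from 2.01 to 26.0 CPM (3.68, SE 0.34, adjusted p = 3.95e-07), and SMAD4 rose from 19.9 to 51.0 CPM (1.36, SE 0.06, adjusted p = 1.41e-17). JUN, the partner of FOS, fell from 36.9 to 18.9 CPM (-0.97, SE 0.07, adjusted p = 9.95e-14), and GATA2 rose from 160.6 to 273.2 CPM (0.77, SE 0.04, adjusted p = 6.95e-16). The forkhead factor gene FOXO1 rose from 19.6 to 22.9 CPM (0.22, SE 0.07, adjusted p = 0.00240), with overlap between the groups in CPM. JUN, GATA2 and FOXO1 were named outside the fixed rule, because letters of their kinds were searched in the EDN1 window.

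**Figure D4:**
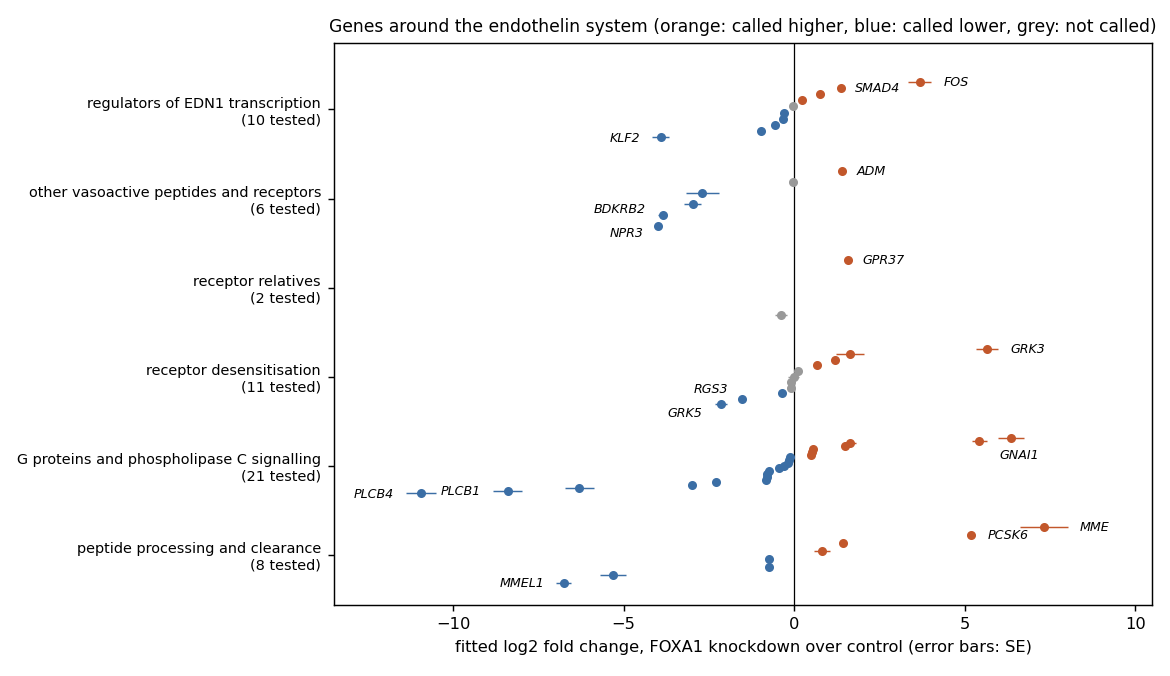
Fitted log2 fold change (horizontal axis, knockdown over control; error bars are SE from replicate log2 CPM, not from the fit) of the tested genes in the 6 lists, with orange for called higher, blue for called lower and grey for not called. Values run from PLCB4 to MME, and fitted values of genes at the floor in 1 group depend on the prior count. PLCB4, PLCB1 and, unlabelled, GNA14 lie far left in the signalling list, where GNAI1 and, unlabelled, PRKCB lie far right, as do GRK3, PCSK6 and MME in theirs.

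Markers of cell types that use EDNRB or make endothelins were measured beside these results. Of 15 neural crest and melanocyte markers, 12 were in the table, and their summed level was 6.80 to 9.19 CPM in control and 17.2 to 18.2 CPM in knockdown libraries. Of the 12, 6 had at most 3 counts in every library, SOX10 and DCT among them, while the pigment cell genes PMEL (1.10 to 13.5 CPM, log2 fold change 3.62, adjusted p = 1.47e-19 by edgeR) and TYRP1 (0.0907 to 2.08 CPM, 4.43, adjusted p = 1.51e-11) rose. TYRP1 was at the floor in control, with at most 3 counts in any library, and its log2 ratio against the floor was at least 3.87. MITF, the master regulator of melanocytes, fell from 5.95 to 1.32 CPM (log2 fold change -2.16, SE 0.11, adjusted p = 3.56e-13 by edgeR). In the knockdown libraries, where EDNRB stood at 67.8 CPM, the crest marker SOX10 was thus at the floor, PMEL and TYRP1 were higher and MITF was lower. The 11 endothelial markers summed to 38.9 to 41.9 CPM in control and 26.5 to 27.4 CPM in knockdown, with PECAM1 at no more than 6 counts and KDR at no more than 7 in any library. The 4 endothelial markers that were tested moved both ways by edgeR. CDH5 rose from 16.1 to 20.0 CPM (adjusted p = 6.28e-05) and ERG from 0 to 4.33 CPM (adjusted p = 4.75e-15), while ESAM fell from 18.6 to 1.27 CPM (adjusted p = 1.90e-20) and VWF from 5.21 to 0.844 CPM (adjusted p = 3.31e-13). The 8 epithelial and SKBR3 markers summed to 18953 to 21065 CPM in control and 11887 to 12792 CPM in knockdown. Of these 8, 5 fell and 3 rose, beside 37.7% of all tested genes called lower and 39.4% called higher. ERBB2 (7299 to 1338 CPM, adjusted p = 8.34e-26 by edgeR), KRT7 (2199 to 636.1 CPM, adjusted p = 2.06e-24) and KRT19 (2642 to 722.0 CPM, adjusted p = 2.53e-21) were among those that fell. The keratin genes KRT8 (4513 to 5611 CPM, adjusted p = 4.55e-06 by edgeR) and KRT18 (2309 to 3452 CPM, adjusted p = 6.00e-11) and the epithelial adhesion gene EPCAM (179.2 to 225.9 CPM, adjusted p = 5.67e-09) rose. Smooth muscle and fibroblast markers (8 of 10 in the table) summed to 10.0 to 12.7 and 12.9 to 14.3 CPM, and immune markers (5 of 6) to 5.67 to 7.40 and 1.48 to 2.59 CPM. The part of these shifts in the endothelin results was not tested.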

How the data were processed

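Trizol was used for RNA extraction, and an Illumina NextSeq550 gave paired reads of 101 bp, per the labels' protocols. The deposited table holds whole-number counts per gene. FastQC, Salmon 1.9, DESeq2 3.16 and hg38 are named in the submitters' processing notes. Whether the counts are rounded Salmon estimates, the annotation release and strand use are not given in the sources used here. Of the gene identifiers, 96.5% matched GENCODE 29.

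Counts were scaled by TMM, filtered with filterByExpr (16430 of 30434 genes kept, 14004 removed) and fitted with edgeR 4.0.16 (robust quasi-likelihood test, Benjamini-Hochberg adjustment over all tested genes, threshold 0.05, R 4.3.3). The script was tested on simulated data in which few genes changed. That test does not cover a contrast as broad as this one, where most genes were called. Member ratios are ratios of mean CPM. Every SE, of member ratios and of fitted fold changes, is from replicate log2 CPM after adding 0.5 to each count. Bounds use a floor of 3 counts per library. Alternatives used DESeq2 1.42.0 and limma 3.58.1. Intervals cover counting error only.

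The members and lists were chosen with earlier results of these data known. Besides the members, FOXA1, overlapping genes and nearest neighbours, the rule named up to 3 called genes per list with the largest absolute log2 fold change and a mean of at least 50 counts, and the 3 genes closest in log2(CPM + 0.5) to EDNRB and to ECE1. Genes named outside it were chosen after their values were seen.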

Additional observations from a re-analysis of the deposited data

Results flagged for a closer look

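Among 76 groups of 4 libraries scanned for a value standing apart (its distance from the closest other value as a share of the whole range, against Dixon's 95% critical value), 6 held one, and chance gives about 1 in 20. EDN2 in control replicate 3 was at 30.0 CPM (632 counts), against 24.5 to 25.2 CPM in the other control libraries. EDNRB in control replicate 4 was at 0.0430 CPM from 1 count, with 0 in the other control libraries. SOHLH2 in control replicate 2 was at 0.0453 CPM from 1 count, with 0 in the others. PLCB1 in knockdown replicate 4 was at 0.0462 CPM from 1 count, with 0 in the others. ZNF831 in knockdown replicate 4 was at 0.785 CPM (17 counts), against 0.610 to 0.637 CPM. MME in knockdown replicate 4 was at 14.7 CPM (318 counts), against 15.7 to 15.9 CPM. For EDNRB, SOHLH2 and PLCB1 the value that stood apart was a single count.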

How the results depend on the processing

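Other scalings, filters, tests and thresholds gave between 10279 (only genes averaging 50 counts or more) and 15028 calls (no filter on low counts) over all genes, beside 12675, and between 43 and 54 calls in the lists, beside 51. Library totals alone moved the median log2 fold change of all genes by 0.08 and the EDNRB bound to 8.99. EDN2 was at -5.35 as a difference of mean log2(CPM + 0.5), where the added value pulls up the knockdown level. Without control replicate 3, whose floor sets the bound, EDNRB was at 8.95 and EDN2 at -7.33. With the longest transcript as length, levels in CPM per kilobase were 22.7 (control) and 10.1 (knockdown) for ECE1, 21.1 and 0.125 for EDN2, and 15.2 (knockdown) for EDNRB, since that transcript is shorter than the merged exons. HIVEP3 turned to -0.055 without knockdown replicate 4 (-0.055 to 0.139 over the libraries left out) and FOXO6 to 0.0118 with library totals, neither past the threshold (adjusted p = 0.691 and 0.859 by edgeR), and the cause was not tested.

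Leaving out each library in turn gave 12498 to 12865 calls over all genes, 50 to 51 in the lists, and log2 ratios of -2.23 to -2.16 for EDN1, -7.57 to -7.22 for EDN2, -1.20 to -1.15 for ECE1 and a bound of 8.88 to 8.95 for EDNRB. With the replicate number as a block, 12453 genes were called, 12388 of them shared, and 51 in the lists. Deviations from the group means correlated at -0.03 to 0.06 between same-numbered samples. By this measure 1 of 4 control and 1 of 4 knockdown samples correlated best with its own number. This gave no sign that the numbers pair the samples, but so few replicates cannot exclude it. Fitted alternatives were not run for EDNRB, whose fitted fold at the floor is no bound, and EDN3 has no ratio. Depth limits statements on EDN3 and on EDN2 in knockdown.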

Other observations

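Near EDNRB, KCTD12, which lies 1.09 Mb downstream and was singled out after its values were seen, rose from 0.554 to 39.7 CPM (log2 fold change 6.15, SE 0.30, adjusted p = 1.18e-24, edgeR's quasi-likelihood test). Near EDN1, ELOVL2, a fatty acid elongase gene 1.25 Mb upstream, singled out in the same way, rose from 0.0793 to 16.0 CPM (log2 fold change 7.56, SE 0.19, adjusted p = 1.89e-22 by edgeR). The mean control level of ELOVL2 was below the lowest control floor of 0.129 CPM, so its fitted fold change depends on the prior count. The readthrough gene EEF1AKMT4-ECE2, which shares 2965 exon bases with ECE2, had at most 1 count in any library. RGS5 had 2 entries in the table, of which 1 rose (log2 fold change 1.63, SE 0.41, adjusted p = 1.04e-05 by edgeR) and the other did not pass (-0.08, SE 0.12, adjusted p = 0.708).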
